A study of Homo sapiens with 18 samples.

Results

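Peaks of H3K27ac and CTCF were described around 7 genes of the pluripotency network and of the LIN28 pathway, SOX2, POU5F1, NANOG, KLF4, LIN28A, LIN28B and SALL4, out of 19111 protein-coding genes on chromosomes 1 to 22. The window of a gene was its GENCODE body on hg38 plus 20 kb on each side, and a peak belonged to the window if 1 bp was shared. The libraries came from HEK293T, a transformed human embryonic kidney line, grown without treatment (CTRL) or for 1 day with valproic acid at 1 mM (VPA), which inhibits histone deacetylases. Each of the 4 groups (H3K27ac CTRL, H3K27ac VPA, CTCF CTRL and CTCF VPA) held 3 replicates. HEK293T is 1 cell line, and nothing in the labels says that the replicates came from separate cultures, so p-values measure the spread between these samples, which may be technical. VPA has been used to aid the reprogramming of somatic cells to pluripotency, which is the background for looking at these genes. Windows held at least 1 peak of each antibody in some library at all 7 genes, as did 86.9% of all windows for H3K27ac and 93.8% for CTCF. At NANOG the only H3K27ac peak was in VPA replicate 3.

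Sequencing depth was not stated in the lists, but the background coverage, which scales with it, ranged from 3.51 to 3.95 fragments. The libraries of replicate 1 stood apart in both treatments. Their lists were the shortest of their group, and 21.3% to 32.1% of their peaks stood on the lowest background of the list, against 3.49% to 13.6% in the other libraries. Values are therefore given per library, and counts were also made without replicate 1. An H3K27ac peak lay within 1 kb of the start site of all 7 genes chosen as HEK293T markers in all 6 libraries, and of 0 of the 6 markers of other cell types in any library. Over all 19111 genes, 61.1% had such a peak in all 6 libraries and 30.4% in none.

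SOX2, POU5F1 (OCT4) and NANOG are transcription factors that hold pluripotent stem cells in the undifferentiated state, KLF4 is a zinc finger factor of the reprogramming cocktail, and SALL4 is a zinc finger factor of embryonic stem cells. LIN28A and LIN28B are RNA-binding proteins that block the maturation of the let-7 family of microRNAs, and LIN28B is known from fetal tissue and tumours. H3K27ac marks active promoters and enhancers, and CTCF binds a long, well conserved motif and anchors chromatin loops. In a bulk population, a weaker mark in all cells and a mark in fewer cells cannot be told apart.

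The start sites of these genes differed widely in acetylation, and their promoter sequences differed widely in CpG content, so the promoters are printed first. Each is 300 bases of RefSeq promoter (GRCh38.p14) from 250 bases before to 50 bases after the start, written 5′ to 3′ on the strand of the gene, with each CG in capitals. LIN28B has an upstream start and a downstream start, the latter being the MANE Select start, which is the start site used for all genes here.
SOX2, chr3:181711675-181711974, plus strand: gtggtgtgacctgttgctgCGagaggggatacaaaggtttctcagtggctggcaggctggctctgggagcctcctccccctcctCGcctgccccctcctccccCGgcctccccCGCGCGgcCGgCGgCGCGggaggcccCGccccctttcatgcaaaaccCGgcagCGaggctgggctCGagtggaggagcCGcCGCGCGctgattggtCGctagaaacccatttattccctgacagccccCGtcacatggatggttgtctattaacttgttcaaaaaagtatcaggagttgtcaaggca
KLF4, chr9:107489720-107490019, minus strand: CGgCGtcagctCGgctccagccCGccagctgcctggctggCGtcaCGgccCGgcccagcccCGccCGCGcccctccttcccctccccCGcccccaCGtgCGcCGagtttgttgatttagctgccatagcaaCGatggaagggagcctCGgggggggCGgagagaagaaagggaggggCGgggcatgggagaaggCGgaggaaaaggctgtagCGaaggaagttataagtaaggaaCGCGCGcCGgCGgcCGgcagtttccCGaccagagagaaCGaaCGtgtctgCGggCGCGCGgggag
LIN28B upstream start, chr6:104940715-104941014, plus strand: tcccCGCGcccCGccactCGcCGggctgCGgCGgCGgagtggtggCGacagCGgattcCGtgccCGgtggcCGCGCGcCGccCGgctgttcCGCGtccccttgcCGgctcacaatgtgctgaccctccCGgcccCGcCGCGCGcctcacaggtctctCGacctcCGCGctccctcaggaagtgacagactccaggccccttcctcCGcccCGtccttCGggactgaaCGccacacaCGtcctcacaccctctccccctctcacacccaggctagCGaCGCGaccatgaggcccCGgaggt
LIN28B MANE Select start, chr6:104956857-104957156, plus strand: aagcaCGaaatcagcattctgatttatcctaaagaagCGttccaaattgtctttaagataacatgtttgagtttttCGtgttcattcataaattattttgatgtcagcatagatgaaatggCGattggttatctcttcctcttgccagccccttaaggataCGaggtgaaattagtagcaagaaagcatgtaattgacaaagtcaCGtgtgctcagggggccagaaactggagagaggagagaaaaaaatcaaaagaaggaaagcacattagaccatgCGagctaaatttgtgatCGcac
NANOG, chr12:7789152-7789451, plus strand: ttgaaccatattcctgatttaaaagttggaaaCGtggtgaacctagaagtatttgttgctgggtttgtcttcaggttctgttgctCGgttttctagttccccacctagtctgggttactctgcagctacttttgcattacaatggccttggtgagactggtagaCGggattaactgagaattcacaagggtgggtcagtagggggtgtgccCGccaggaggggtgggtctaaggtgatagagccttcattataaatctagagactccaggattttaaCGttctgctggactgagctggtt
The median of 35116 promoters was 14 CG. The SOX2 promoter held 20 CG, and 41.2% of all promoters held at least as many. KLF4 held 33 (17.2% of promoters held at least as many) and the upstream LIN28B start 37 (11.3%). The MANE Select start of LIN28B held 8 (60.7%) and NANOG 5 (70.4%).

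An H3K27ac peak lay over the start site of SOX2, KLF4 and LIN28B in 6 of 6 libraries. At SALL4 a peak covered the start site in 2 CTRL and 3 VPA libraries, and a peak lay within 1 kb of it in 6 of 6. At POU5F1, NANOG and LIN28A no library of either treatment had an H3K27ac peak within 1 kb of the start site. Over all 19111 genes, 55.2% had a peak over the start site in all 6 libraries and 33.1% in none. The start site calls of the 7 genes were the same in CTRL and VPA except for SALL4 replicate 1. A start site that had no peak in CTRL and a peak in all 3 VPA libraries occurred at 0 of the 7 genes and at 0.136% of all genes.

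LIN28B had the H3K27ac region with the highest mean fold enrichment of the 7 windows. Fold enrichment is the height of the summit over its local background. On summit height alone this region did not lead in every library, as the SOX2 region was higher in replicate 1 of both treatments. The H3K27ac region over the MANE Select start of LIN28B (chr6:104955375-104959975, 4601 bp wide, summit at 1.05 kb, in a LIN28B exon) reached a fold enrichment of 89.2, 51.6 and 59.1 in CTRL replicates 1, 2 and 3 and of 48.3, 42.8 and 41.2 in the VPA replicates. All 3 VPA values were below all 3 CTRL values. Of the 11 regions present in all 6 libraries, this was the only one whose fold enrichment did not overlap between the groups. On summit height in fragments, not scaled for depth, several other regions did not overlap either, some lower and some higher in VPA. The LIN28B start site region covered 4380, 4415 and 4462 bp in CTRL and 4218, 4555 and 4291 bp in VPA, which overlapped. This wide region thus lay at the promoter with few CG printed above. A smaller H3K27ac region (summit at −15.6 kb), chosen for description after its values were seen, lay beside the CpG-rich upstream start. Its peaks began just downstream of that start in all libraries but CTRL replicate 3. Its summit was nearer the starts of the non-coding genes LIN28B-AS1 (−15.66 kb) and ENSG00000290011 (−15.483 kb). The upstream region had a fold enrichment of 3.99, 11.99 and 11.5 in CTRL and of 4.33, 16.0 and 16.7 in VPA, with replicate 1 low in both treatments.

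SOX2 had an H3K27ac region of 6532 bp that spanned the gene (chr3:181709857-181716388). Its fold enrichment was 17.3, 42.6 and 54.5 in CTRL and 10.5, 24.9 and 23.1 in VPA. Each VPA value was below the CTRL value of the same replicate number, but the groups overlapped because the ratio in CTRL replicate 1 was low. That library had the highest summit but a local background of 29.3, against 7.45 and 4.98 in CTRL replicates 2 and 3. The summit heights were 522, 359 and 325 fragments in CTRL and 301, 176 and 202 in VPA, without overlap. The length covered by peaks in this region went the other way, with 3766, 4594 and 4343 bp in CTRL and 4707, 5867 and 5641 bp in VPA, without overlap. In VPA replicate 2 a single peak bridged stretches that were separate peaks in the other libraries, as the maps of the peaks show.

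KLF4 had 1 H3K27ac region, over its start site (chr9:107488600-107490910, summit at −0.425 kb). The fold enrichment was 4.32, 16.0 and 19.9 in CTRL and 4.36, 27.01 and 11.4 in VPA, and the groups overlapped. SALL4 had an H3K27ac region over its start site (chr20:51799750-51803254, summit at 1.71 kb, in the gene) with a fold enrichment of 4.23, 16.9 and 18.1 in CTRL and of 4.08, 9.20 and 14.2 in VPA, again overlapping. At both genes replicate 1 had the lowest fold enrichment of its treatment, but the highest summit, over a higher local background. At KLF4 the summit heights in CTRL were 290, 245 and 233 fragments, over backgrounds of 66.3, 14.4 and 10.8. The same order held in both treatments at the SOX2 region and at the upstream LIN28B region.

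**Figure D1:**
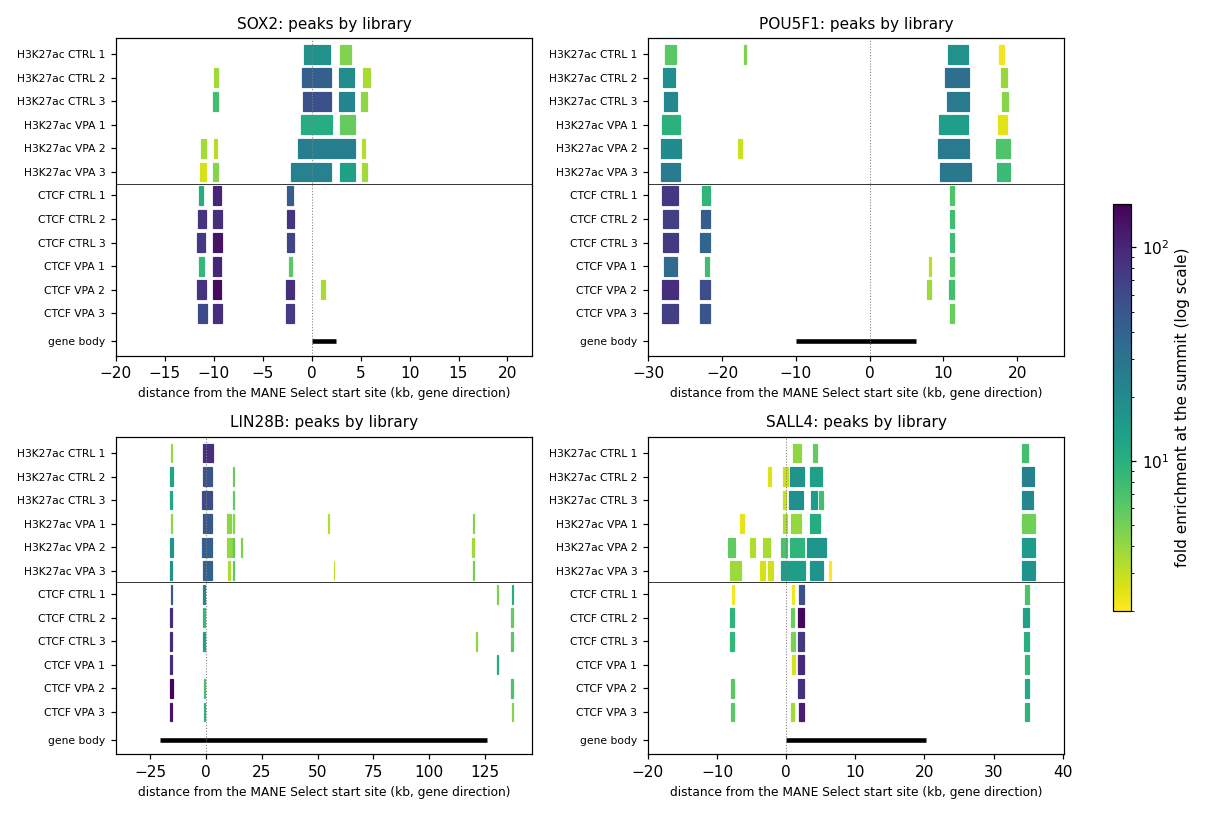
H3K27ac and CTCF peaks of the 12 libraries in the windows of SOX2, POU5F1, LIN28B and SALL4, with the distance from the MANE Select start site in kb on the x axis and 1 row per library. The colour is the fold enrichment on a log scale, and the black bar is the annotated gene body. Acetylation lies over the start sites of SOX2, LIN28B and SALL4 and away from that of POU5F1, and the peaks at 9.78 and 120.0 kb in LIN28B appear only in the VPA rows.

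POU5F1, LIN28A and NANOG had no acetylated start site of their own, and the H3K27ac regions shared by all 6 libraries in the windows of POU5F1 and LIN28A lay mostly at promoters of neighbouring genes. In the POU5F1 window the strongest region (chr6:31156940-31161358, summit at 12.7 kb) had its summit 0.186 kb from the start site of CCHCR1. It reached a fold enrichment of 17.7, 33.5 and 26.9 in CTRL and of 13.996, 26.6 and 27.1 in VPA. Its covered length was 2745, 3235 and 2988 bp in CTRL and 3919, 4110 and 4145 bp in VPA, without overlap. The region at −27.5 kb had its summit in an exon of HCG27, a non-coding gene, and covered 1596, 1655 and 1740 bp in CTRL and 2461, 2736 and 2634 bp in VPA. In the LIN28A window the only region found in all 6 libraries had its summit 0.388 kb from the start site of DHDDS, at 21.1 kb. Its fold enrichment was 3.74, 7.34 and 9.72 in CTRL and 4.61, 6.11 and 7.85 in VPA. NANOG had 0 H3K27ac peaks in 5 libraries and 1 peak, of 317 bp, in VPA replicate 3. The H3K27ac region of the SALL4 window with the highest mean fold enrichment over the 6 libraries was likewise at a neighbour, 0.498 kb from the start site of ATP9A (summit at 34.6 kb), with a fold enrichment of 7.37, 23.6 and 21.0 in CTRL and of 5.13, 14.6 and 16.8 in VPA. The region at 4.14 kb from the SALL4 start had 5.59, 13.3 and 14.5 in CTRL and 10.8, 16.1 and 16.9 in VPA, and was the stronger of these 2 regions in each VPA library. POU5F1 and NANOG have processed pseudogenes elsewhere in the genome, and how reads that match several places were treated was not given in the sources used here.

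Union regions were merged from the peaks of the 6 libraries of an antibody. For H3K27ac, 29 of 55382 regions shared a base with the 7 windows, and 11 of them had a peak in all 6 libraries. All VPA libraries and no CTRL library had a peak at 3 of the 29, against 4.12% of all H3K27ac regions, and the reverse occurred at 0 of the 29, against 0.139% of all. Of the 3, 1 lay in LIN28B at 9.78 kb (chr6:104966460-104968627), with a fold enrichment of 4.30, 4.07 and 3.41 in the VPA replicates. It stood beside a region at 12.2 kb that was called in CTRL replicates 2 and 3 and in all VPA replicates. Another lay in the body of LIN28B at 120.0 kb (chr6:105076577-105077358), with 4.62, 3.73 and 5.19. The last lay upstream of SALL4 at −7.75 kb (chr20:51808660-51810920), with 2.40, 5.81 and 3.86, and overlapped a CTCF region. All 3 were weak beside the start site regions of the same genes. A peak missing from a list says only that it did not pass the threshold of the peak caller there.

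Counted per window, LIN28B had more H3K27ac peaks in every VPA library than in any CTRL library, and the other genes had overlapping numbers. The LIN28B window held 2, 3 and 3 H3K27ac peaks without treatment and 6 in each VPA library (exact permutation test, two-sided, p = 0.1, the smallest p that 3 against 3 allows). It was the only gene of the 7 whose H3K27ac peak numbers did not overlap between the groups with more in VPA, against 13.1% of all windows, and 0 of 7 had fewer without overlap, against 0.157%. The LIN28B window was 186.7 kb long, against 42.5 to 60.2 kb for the other genes. Over all windows, the share with more peaks in VPA rose with flank length, from 6.50% without flanks to 21.4% with flanks of 50 kb. At SALL4 the CTRL libraries held 3, 5 and 5 and the VPA libraries 5, 7 and 7. SOX2 had 2, 4 and 4 in CTRL and 2, 4 and 5 in VPA. POU5F1 had 3 or 4 peaks in every library, KLF4 had 1 in every library and LIN28A had 1 in all libraries but VPA replicate 3, which had 3. Replicate numbers were taken as pairs for H3K27ac, although replicates 2 and 3 correlated as well across numbers. Within each of the 3 numbers VPA was higher at 2 of the 7 genes (LIN28B and SALL4), against 21.6% of all windows.

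Covered length, the summed length of the peaks in a window, separated the groups at more genes than peak number did, as over all windows. POU5F1 went from 5.51 ± 0.230 kb in CTRL to 8.49 ± 0.774 kb in VPA (mean ± SD, n = 3 each; exact permutation p = 0.1). LIN28B went from 5.61 ± 0.494 to 8.35 ± 1.26 kb (n = 3 each; exact permutation p = 0.1). These were the 2 of 7 genes without overlap between the groups, against 30.0% of all windows, and 0 of 7 were lower without overlap, against 0.147%. The longer coverage at POU5F1 lay in the 3 regions away from its start site, each of which was longer in every VPA library than in any CTRL library. SALL4 covered 2.72, 6.53 and 5.45 kb in CTRL and 5.84, 10.2 and 10.6 kb in VPA, and SOX2 3.77, 5.66 and 5.32 kb in CTRL and 4.71, 7.15 and 7.21 kb in VPA. KLF4 covered 2.01 ± 0.335 kb in CTRL and 2.01 ± 0.367 kb in VPA (n = 3 each). Within replicate numbers, VPA was higher in all 3 at 5 of the 7 genes (SOX2, POU5F1, LIN28A, LIN28B and SALL4), against 67.4% of all windows, and this paired comparison cannot go below p = 0.25 (exact sign-flip test). Adjusted over all windows, the smallest p was 0.753 for H3K27ac peak number and 0.331 for covered length (exact permutation tests, Benjamini-Hochberg). Without replicate 1 of both treatments, an alternative added after the data were seen, 2 genes had more peaks and 5 a longer covered length without overlap, against 28.1% and 69.1% of all windows, and groups of 2 overlap less readily than groups of 3. With all replicates, the shares among the 7 genes were close to the shares over all windows.

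**Figure D2:**
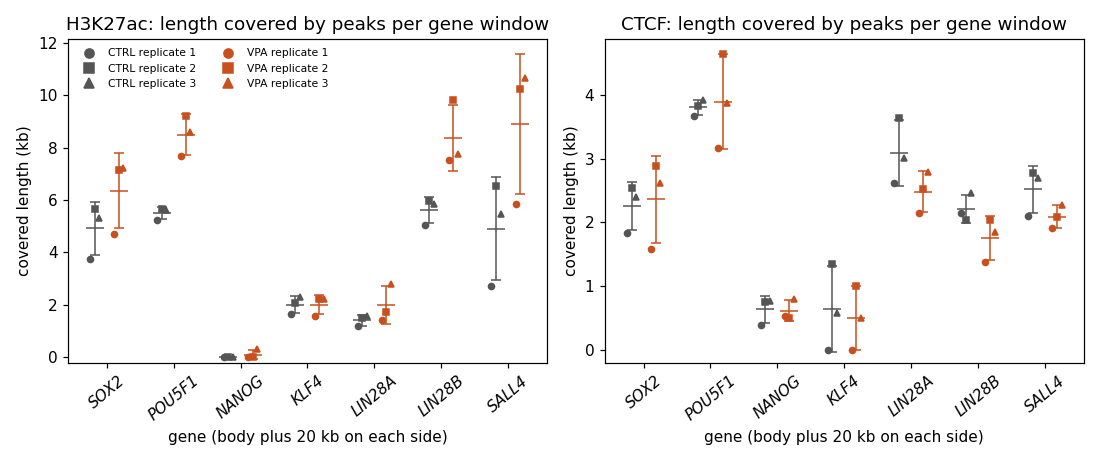
Length covered by H3K27ac peaks (left) and CTCF peaks (right) in the windows of the 7 genes, in kb. Points are single libraries, with the shape giving the replicate, and dashes and bars are the mean and SD of 3 replicates. For H3K27ac the VPA points of POU5F1 and LIN28B all lie above the CTRL points, and NANOG has no covered length except 0.317 kb in VPA replicate 3.

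Several of the acetylated regions were longer in VPA, and none had a higher fold enrichment without overlap. Among the 11 H3K27ac regions present in all 6 libraries, 5 covered more bases in every VPA library than in any CTRL library (SOX2 at 0.636 kb, POU5F1 at −27.5, 12.7 and 18.2 kb and SALL4 at 34.6 kb), against 23.3% of all such regions, and 0 covered fewer, against 0.679%. The fold enrichment was higher in VPA without overlap at 0 of the 11, against 4.53% of all regions, and lower at 1 (LIN28B at its start site), against 1.56%. The picture differed for summit height in fragments, not scaled for depth. It was higher in VPA without overlap at POU5F1 −27.5 and 18.2 kb and SALL4 4.14 kb. It was lower without overlap at SOX2, the LIN28B and SALL4 start sites, POU5F1 12.7 kb and SALL4 34.6 kb. The share over all regions was not computed for summit height. Counts of this size over 11 regions were not tested against the genome.

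**Figure D3:**
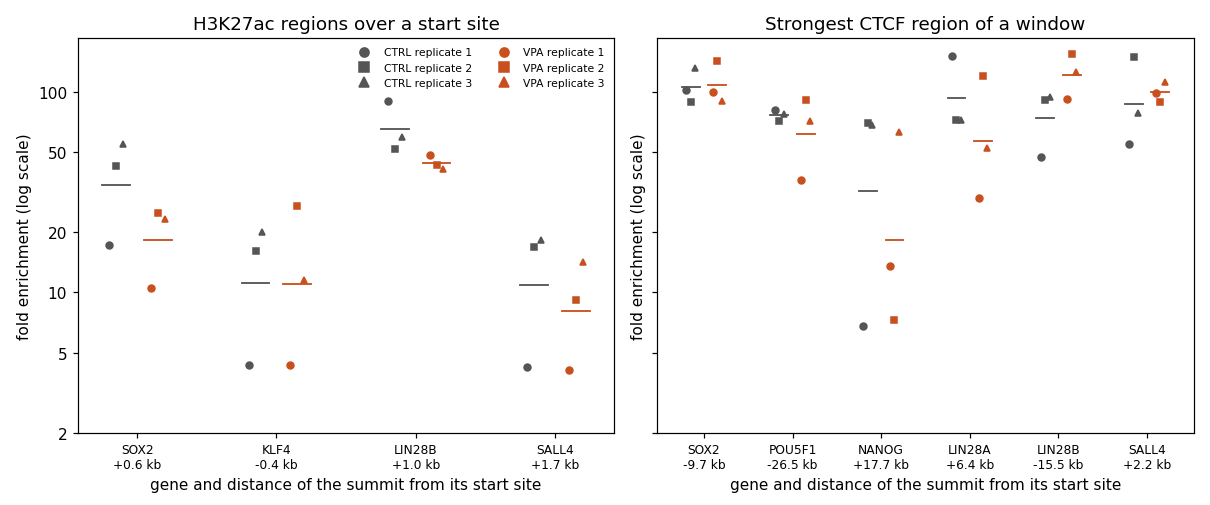
Fold enrichment on a log axis at the H3K27ac regions over a start site (left) and at the strongest CTCF region of each window found in all 6 libraries (right), labelled with the distance of the summit from the start site. Points are single libraries, and lines are geometric means of 3 replicates. The 3 VPA values of LIN28B H3K27ac lie below its 3 CTRL values, and CTRL replicate 1 lies far below the other CTRL libraries at SOX2, KLF4, SALL4 and NANOG.

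To test the fold enrichment, limma was fitted to the log2 values of all regions found in all 6 libraries. For H3K27ac, 0% of 18407 regions were called higher and 0% lower at an adjusted p under 0.05, with 253 higher and 48 lower at an unadjusted p under 0.05, and 0 of the 11 regions of these genes were called. In simulated data this fit recovered only 21% of planted log2 changes of 2, so a region that was not called may still differ. The simulation gave each library independent noise of 1 spread, without the correlation between libraries seen here. The share recovered in the real data may therefore be another. The log2 change was −0.91 (SE 0.736, adjusted p = 1.0) at SOX2, −0.56 (SE 0.650) at the LIN28B start site, −0.43 (SE 0.664) at the SALL4 start site and −0.01 (SE 0.719) at KLF4. The median over all regions was −0.14, and it ranged from −0.54 without CTRL replicate 1 to 0.19 without VPA replicate 1. With the replicate number as a block, 4.73% of the 18407 regions were called higher and 11.8% lower, and SOX2 was the 1 region of the 11 that was called, lower by −0.91 (SE 0.198, limma adjusted p = 0.00733), in 3 of 3 replicate pairs. The LIN28B start site then had an SE of 0.207 and a limma adjusted p of 0.0695, with lower values in 3 of 3 pairs. Without replicate 1 of both treatments, 419 of the 18407 regions were called higher and 1417 lower. SOX2 was among the lower ones (log2 −1.01, limma adjusted p = 0.0122). On the scale of the summit pileup over the background coverage, 748 of the 18407 regions were called higher and 2460 lower without a block. SOX2 (log2 −0.88, limma adjusted p = 0.0229) and the LIN28B start site (log2 −0.85, limma adjusted p = 0.0147) were both among the lower ones. With 1 library left out and no block, on the scale of fold enrichment, neither was called, and the change ranged from −1.40 (without CTRL replicate 1) to −0.51 (without VPA replicate 1) at SOX2 and from −0.72 (without CTRL replicate 2) to −0.33 (without CTRL replicate 1) at the LIN28B start site. The call at SOX2 therefore depended on the handling of replicates and on the measure, and that at LIN28B on the measure.

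**Figure D4:**
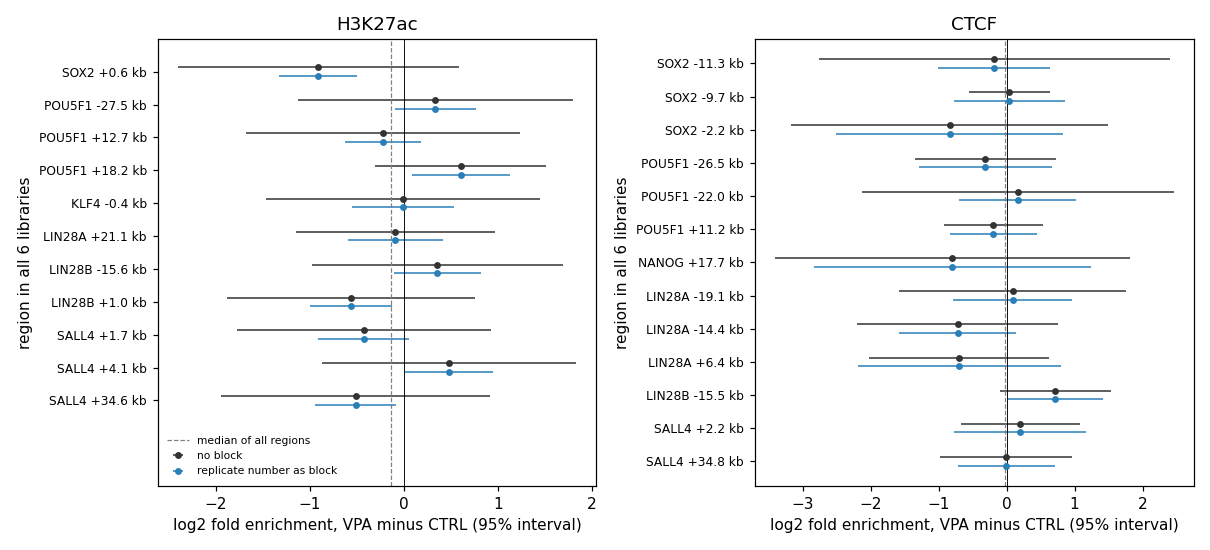
Change in log2 fold enrichment, VPA minus CTRL, with its 95% interval at the 11 H3K27ac regions (left) and 13 CTCF regions (right) found in all 6 libraries. Dark points are from the fit without a block, blue points from the fit with the replicate number as a block, and the dashed line is the median over all regions of the antibody. The unblocked intervals all cross 0, and the blocked intervals of SOX2, of the LIN28B start site and of SALL4 at 34.6 kb lie below it. The blocked intervals of POU5F1 at 18.2 kb, SALL4 at 4.14 kb and CTCF at LIN28B −15.5 kb lie above 0.

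CTCF was examined in the same windows. Of 69985 CTCF regions, 24 shared a base with the windows, 13 of them in all 6 libraries. The sequences under those of the 24 with a CTCF core motif of 14 letters, allowing 1 mismatch, are printed to show where this consensus was matched. A region without a match can hold a more diverged one, as at LIN28B −15.5 kb, where the closest match had 2 mismatches. Each is the hg38 sequence of the match and 10 bases on each side, 5′ to 3′ on the strand of the match, with the match in capitals.
SOX2 at −11.3 kb, chr3:181700620-181700653, minus strand: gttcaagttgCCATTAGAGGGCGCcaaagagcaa
SOX2 at −9.67 kb, chr3:181702254-181702287, minus strand: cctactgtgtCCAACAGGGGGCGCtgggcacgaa
SOX2 at −2.19 kb, chr3:181709690-181709723, plus strand: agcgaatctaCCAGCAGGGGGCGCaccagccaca
POU5F1 at −22.015 kb, chr6:31192697-31192730, minus strand: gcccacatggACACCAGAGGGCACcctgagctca
NANOG at 17.7 kb, chr12:7807037-7807070, minus strand: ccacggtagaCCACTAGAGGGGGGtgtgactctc
LIN28A at −19.1 kb, chr1:26391652-26391685, minus strand: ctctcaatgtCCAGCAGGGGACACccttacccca
LIN28A at 6.39 kb, chr1:26417198-26417231, minus strand: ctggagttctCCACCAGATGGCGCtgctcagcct
LIN28B at 130.7 kb, chr6:105087762-105087795, plus strand: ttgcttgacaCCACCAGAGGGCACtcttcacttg
SALL4 at 2.18 kb, chr20:51800317-51800350, plus strand: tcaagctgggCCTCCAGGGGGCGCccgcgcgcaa
The motif lay within 100 bp of the summit, on either strand, at 8 of the 13 regions found in all 6 libraries and at 1 of the 11 other regions, the one at 130.7 kb in LIN28B. Over the genome it was found at 42.0% of regions in all 6 libraries, at 16.7% of the other regions and at 0.712% of windows of the same length 2 kb away. A match is a description of the letters and not a proof of the bound base.

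Upstream of SOX2 there were 3 CTCF regions, each with a motif. The one at −9.67 kb (chr3:181701848-181702757, in an exon of SOX2-OT, a non-coding gene that spans SOX2) was the most even, with a fold enrichment of 101.3, 88.6 and 130.3 in CTRL and 99.7, 142 and 89.8 in VPA. At −11.3 kb the values were 10.4, 82.1 and 76.4 in CTRL and 8.61, 85.1 and 60.7 in VPA. At −2.19 kb they were 44.3, 81.7 and 64.9 in CTRL and 6.10, 89.8 and 75.0 in VPA. At both of these the low values belonged to replicate 1. The region at −2.19 kb lay at the edge of the H3K27ac region of SOX2 and overlapped it.

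NANOG had 1 CTCF region and nothing else in all 6 libraries (chr12:7806683-7807482, 17.7 kb downstream of the start). Its fold enrichment was 6.75, 70.0 and 67.9 in CTRL and 13.5, 7.24 and 62.7 in VPA, so 1 CTRL and 2 VPA libraries were low. KLF4 had 0 CTCF regions in all 6 libraries, with 0, 3 and 1 peaks in the CTRL libraries and 0, 1 and 1 in the VPA libraries. LIN28A had 3 CTCF peaks in each of the 6 libraries. The strongest of its regions (chr1:26416242-26417969, at 6.39 kb in the gene) had a fold enrichment of 150.0, 72.5 and 72.4 in CTRL and of 29.3, 119.9 and 52.6 in VPA, and it was the 1 CTCF region of the 13 that was shorter in all VPA libraries. It covered 1007, 1728 and 1102 bp in CTRL and 670.0, 899 and 919 bp in VPA.

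POU5F1 had a strong CTCF region at −26.5 kb (chr6:31196596-31198785, in an exon of a non-coding gene beside HCG27) with a fold enrichment of 80.6, 71.1 and 77.7 in CTRL and of 36.1, 90.4 and 71.2 in VPA. No match to the motif was found there. SALL4 had its strongest CTCF region inside the gene at 2.18 kb (chr20:51799884-51800867), within the H3K27ac region of the start site, with 54.9, 148.6 and 78.6 in CTRL and 98.2, 88.8 and 112 in VPA. At LIN28B the strongest CTCF region (chr6:104940993-104942028, at −15.5 kb) began just downstream of the upstream, CpG-rich start. It had 46.9, 90.6 and 93.7 in CTRL and 92.1, 154 and 125 in VPA, also without a match. It covered 828, 904 and 907 bp in CTRL and 941, 1036 and 985 bp in VPA. These lengths did not overlap, which made it the 1 CTCF region of the 13 that was longer in VPA.

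Per window, the number of CTCF peaks did not separate the groups at any of the 7 genes. More peaks in VPA without overlap occurred at 0 of 7, against 0.351% of all windows, and fewer at 0 of 7, against 0.879%. Covered length was lower without overlap at 1 gene, LIN28B (2.14, 2.04 and 2.46 kb in CTRL and 1.38, 2.03 and 1.85 kb in VPA; exact permutation p = 0.1), against 1.54% of all windows, and higher at 0, against 0.743%. The difference in CTCF covered length at LIN28B rested on smaller regions. The one at −0.904 kb, beside the acetylated start site, covered 566, 536 and 573 bp in CTRL and 0, 456 and 451 bp in VPA. Adjusted over all windows, no p was below 1 for either CTCF measure (exact permutation tests, Benjamini-Hochberg). CTCF regions called throughout one treatment and nowhere in the other numbered 0 of 24 in both directions, against 0.186% only in VPA and 0.326% only in CTRL over all regions. Among the 13 CTCF regions, 1 was longer in VPA without overlap (3.05% of all) and 1 was shorter (1.83%). The fold enrichment was higher without overlap at 0 (3.87%) and lower at 0 (2.24%). In limma, 0% of 27794 CTCF regions were called higher and 0% lower, with 186 higher and 68 lower at an unadjusted p under 0.05. The log2 change of the 13 regions ranged from −0.84 (SE 1.02) at SOX2 −2.19 kb to 0.72 (SE 0.356) at LIN28B −15.5 kb, around a median over all regions of −0.02. The value at SOX2 −2.19 kb rested on VPA replicate 1, and it was 0.41 without that library and 0.17 without replicate 1 of both treatments.

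Acetylation and CTCF overlapped at several of these sites. Of the 11 H3K27ac regions found in all 6 libraries, 6 shared a base with a CTCF region found in all 6, against 31.4% of all such H3K27ac regions. Of the 13 CTCF regions, 6 shared a base with such an H3K27ac region, against 21.95% of all. The H3K27ac and CTCF regions beside the upstream LIN28B start were 1 such pair.

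Further genes of the pluripotency network were taken from a list of 24. Of these, 19 windows held an H3K27ac peak in any library (86.9% of all windows). More H3K27ac peaks in VPA without overlap occurred at 2 (13.1% of all windows) and fewer at 0 (0.157%). The covered length was longer at 7 (30.0% of all windows) and shorter at 0 (0.147%). DNMT3B, a DNA methyltransferase of early embryos, went from 6, 5 and 4 peaks to 13, 8 and 11 with VPA. NR5A2, a nuclear receptor that can replace POU5F1 in reprogramming, had 5, 3 and 5 in CTRL and 7, 6 and 7 in VPA. The median difference in covered length over the 24 windows was 0.321 kb, against 0.869 kb over all windows. For CTCF, 0 of the 24 separated by peak number, against 0.351% of all windows higher and 0.879% lower. The CTCF covered length was shorter at 1 (1.54% of all windows) and longer at 0 (0.743%). In limma, 0 of 21 H3K27ac regions and 0 of 37 CTCF regions of these genes were called (0% of all regions for both antibodies). With the block, 3 of the 21 H3K27ac regions were lower (11.8% of all regions) and 0 higher (4.73%).

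The other list held 21 genes of the LIN28 and let-7 axis, the enzymes that process or degrade let-7, its targets and let-7 genes. Let-7 genes that lie in 1 cluster share peaks, so their windows are not separate. Of the 21, 20 windows held an H3K27ac peak in any library (86.9% of all windows). More peaks in VPA without overlap occurred at 6 (13.1% of all windows) and fewer at 0 (0.157%). The covered length was longer at 5 (30.0% of all windows) and shorter at 0 (0.147%). IGF2BP3, an RNA-binding protein and let-7 target, went from 6, 7 and 7 peaks to 13, 12 and 11 with VPA. DIS3L2, the exonuclease that degrades let-7 precursors tailed with uridine, had 1, 2 and 2 in CTRL and 4, 4 and 6 in VPA. TRIM71, a let-7 target of stem cells, had 4, 4 and 3 in CTRL and 5, 5 and 6 in VPA. IGF2BP2 had 5 in each CTRL library and 6, 6 and 7 in VPA, and MIRLET7G had 3 in each CTRL library and 5, 4 and 4 in VPA. The median difference in covered length was 1.46 kb, against 0.869 kb over all windows. For CTCF, 0 of the 21 separated by either measure. Over all windows, CTCF peak number was higher at 0.351% and lower at 0.879%, and covered length longer at 0.743% and shorter at 1.54%. In limma, 0 of 30 H3K27ac and 0 of 34 CTCF regions were called (0% of all regions for both antibodies). With the block, 11 of the 30 H3K27ac regions were lower (11.8% of all regions) and 0 higher (4.73%). Nothing is claimed to be particular to either list.

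Genes whose covered length was most like that of a member over the 12 libraries were found by the mean absolute difference. They were ZNF778 (0.268 kb) and FGF9 (0.278 kb) for SOX2, LYSET (0.378 kb) and CIAPIN1 (0.386 kb) for POU5F1, and SLC2A2 (0.0534 kb) and ERICH3 (0.0556 kb) for NANOG. KLF4 was most like ERCC8 (0.120 kb) and EBLN1 (0.176 kb). LIN28B was most like ZNF428 (0.316 kb) and SRRM5 (0.339 kb), and SALL4 most like NUP188 (0.409 kb) and FUZ (0.415 kb). None of these pairs included another of the 7 genes, which the comparison left out.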

How the data were processed

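The peak lists of 12 ChIP-seq libraries were used, and the 6 input libraries were not used here. According to the submitters' processing notes and the study's methods, the authors aligned reads to hg38 with Bowtie2 and called peaks with MACS at a q-value of 0.05 in each library, without pooling. The processing notes give the version as MACS3 3.0.0a7. Whether the input libraries served as the control was not given in the sources used here. The deposited lists give, for each peak, the fold enrichment (a ratio) over local background, with the −log10 p-value and the −log10 q-value that the authors' peak caller assigned. Read totals are not in the lists, so intervals that need counts are not given. The summit pileup and background were recovered from the fold and p-value, taking the fold as pileup plus 1 over background plus 1 and p as a Poisson tail, and the lowest local background served as the measure of depth.

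All 506359 peaks ended within hg38 chromosomes, and no pair of lists of an antibody shared more than 0.0192% identical intervals. Genes and exons came from GENCODE release 44. Windows, union regions (peaks sharing 1 bp) and motifs were computed with pandas 2.3.3, numpy 2.4.6 and scipy 1.17.1 in Python 3.11.15, and figures with matplotlib 3.10.9. Windows were compared by exact two-sided permutation tests, and the log2 fold enrichment of the strongest peak in a region by limma 3.58.1 (trend) in R 4.3.3 with Benjamini-Hochberg adjustment over all regions fitted. Both steps were tested on simulated data. With log2 changes of 2 planted in 200 regions and independent noise in each library, limma without a block recovered 21% for H3K27ac and 72% for CTCF. Of its calls, 8.70% and 7.69% were false. The study's own test used reads, which were not used here. A p from 3 against 3 cannot go below 0.1.

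Replicate numbers came from the labels. Deviations of the log2 fold enrichment from the group means correlated at 0.865, 0.585 and 0.591 between same-numbered H3K27ac libraries across regions, so the numbers were taken as pairs, although replicates 2 and 3 correlated as well across numbers (0.607 and 0.554). For CTCF the values were 0.340, −0.0451 and 0.477 on the scale of the fit, and the numbers were not taken as pairs. On the pileup scale they were 0.790, 0.543 and 0.852, so the answer for CTCF depended on the scale.

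Promoters came from the RefSeq table (GRCh38.p14), where SOX2, NANOG, KLF4 and LIN28B were found. The regions named were those over a start site, the strongest of each antibody in a window and those called in all libraries of only 1 treatment. Other genes were named if their peak numbers did not overlap, at most 5 a list and antibody, and the 2 genes most like a member had to lie over 1 Mb away. Those of LIN28A are not reported here. The members and lists were chosen with earlier results of these data known.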

Additional observations from a re-analysis of the deposited data

Results flagged for a closer look

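LIN28B was singled out because its windows moved in opposite directions for the 2 antibodies, with every VPA library on 1 side of every CTRL library in each. The covered length differed by 2.74 kb (VPA minus CTRL) for H3K27ac and by −0.457 kb for CTCF. This difference between the antibodies was not tested. For H3K27ac, 30.0% of all windows were higher without overlap, so the CTCF value is the rarer one (1.54% lower). For CTCF the separation rested on CTRL replicate 2 and VPA replicate 2, at 2.04 and 2.03 kb, and it was lost without flanks, with flanks of 50 kb and at equal list lengths.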

How the results depend on the processing

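Genes with more H3K27ac peaks in VPA without overlap numbered 2 instead of 1 with flanks of 50 kb (21.4% of all windows), without replicate 1 of both treatments (28.1%) and with the replicate block (21.6%), and 1 to 2 when single libraries were left out (16.1% to 24.5%). Genes with a longer H3K27ac covered length numbered 1 instead of 2 without flanks (21.0% of all windows), 4 with 50 kb (36.6%), 5 without replicate 1 (69.1%) and with the replicate block (67.4%), and 2 to 5 with single libraries left out (30.6% to 68.6%), with 5 without VPA replicate 1. Genes with a shorter CTCF covered length numbered 0 instead of 1 with 50 kb (1.25% of all windows) and at equal list lengths (1.96%), 3 without replicate 1 (21.2%) and with the replicate block (17.4%), and 1 to 3 with single libraries left out (1.67% to 20.9%), with 3 without CTRL replicate 1 or VPA replicate 3. Those with a longer one numbered 1 instead of 0 without replicate 1 (11.1%) and 0 to 1 with single libraries left out (0.90% to 10.2%). Genes with more or with fewer CTCF peaks numbered 0 to 1 with single libraries left out (0.487% to 2.29% and 1.06% to 7.93%). The motif without a mismatch was found at 2 of the 13 CTCF regions.

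In limma, the 11 H3K27ac regions gave 0 higher and 1 lower call with the replicate block, 1 higher and 3 lower with the summit pileup over the background coverage, 3 higher and 7 lower with both, which was added after the data were seen, and 0 higher and 1 lower without replicate 1. Those called on the pileup scale were POU5F1 18.2 kb (0.84, limma adjusted p = 0.0201), SOX2 (−0.88, 0.0229), the LIN28B start site (−0.85, 0.0147) and SALL4 34.6 kb (−0.64, 0.0396). All 4 were also called on the pileup scale with the block, but only SOX2 was called with the block on fold enrichment. The block on the pileup scale added POU5F1 −27.5 kb (0.28) and SALL4 4.14 kb (0.52) as higher, and KLF4 (−0.34), POU5F1 12.7 kb (−0.35), the SALL4 start site (−0.40) and LIN28B −15.6 kb (−0.26, limma adjusted p = 0.036) as lower. The pileup scale moved the median over all H3K27ac regions from −0.14 to −0.28. Over all H3K27ac regions, calls went from 0 to 871 higher and 2169 lower with the block, 748 and 2460 with the pileup scale, 2210 and 9854 with both, and 419 and 1417 without replicate 1. No CTCF region was called under any of the alternatives run, with 372 higher and 226 lower at an unadjusted p under 0.05 with the replicate block.

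Directions turned at regions not called without a block on the deposited scale, of which LIN28B −15.6 kb was called after turning. For H3K27ac, that region was 0.36 and turned to −0.26 on the pileup scale with and without the block (−0.16 to 0.99 with single libraries left out), POU5F1 −27.5 kb ranged from −0.22 to 0.73, KLF4 was 0.077 after median centring and −0.69 to 0.66 with single libraries left out, LIN28A at 21.1 kb was 0.12 on the pileup scale with and without the replicate block and −0.48 to 0.21 with libraries left out, POU5F1 at 12.7 kb ranged from −0.47 to 0.094, SALL4 at 34.6 kb from −1.05 to 0.023 and at its start site from −1.11 to 0.070. For CTCF, without replicate 1 the change was 0.13 at LIN28A, 0.11 at POU5F1 −26.5 kb, 0.17 at SOX2 −2.19 kb and −0.12 at SALL4 2.18 kb, and with single libraries left out it was −0.59 to 0.071 at that POU5F1 region, −0.12 to 0.60 at that SALL4 region, −1.53 to 0.41 at that SOX2 region and −0.16 to 0.19 at SOX2 −9.67 kb. The cause of these changes was not tested. Covered length by summit in the window was not run. Fold enrichment exists only where a peak was called, so a region missing from a list has no value, and regions near the threshold are described by presence alone. The number of reads is unknown, and 3 libraries a group cannot pass 0.05 in an exact test.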
